A study of Mus musculus with 106 samples.

Results

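The D cyclins (Ccnd1, Ccnd2 and Ccnd3), their kinase partners (Cdk4 and Cdk6), the proteins that hold the cycle back (Cdkn1a, Cdkn1b and Rb1) and a pair of polo-like kinases with brain expression (Plk2 and Plk5) were followed across the cell types of a Huntington's disease (HD) mouse. The genes were chosen by name, with earlier results of these data known, and make up 10 of the 55401 mouse genes in the count table. All 10 were found and all are protein-coding. Levels are given in every cell type, region and kind of library, and the HD effect in each.

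A D cyclin bound to CDK4 or CDK6 phosphorylates the retinoblastoma protein in early G1, and the E2F factors that it held are then free to switch on genes of DNA replication. The products of Cdkn1a (p21) and Cdkn1b (p27) bind cyclin and CDK complexes and restrain them. Most neurons of the adult brain have left the cycle and yet keep RNA of many of these genes. In the cerebellum cyclin D1 is best known from the dividing precursors of granule cells, and cyclin D2 is known for its part in the birth of neurons in the adult forebrain.

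RiboTag mice carry an HA-tagged ribosomal protein, Rpl22, that is switched on by Cre, so that an antibody to HA pulls down mRNA on the ribosomes of the Cre-expressing cells (IP), while total RNA from the same homogenate holds mRNA of all cells. HD mice carried 1 expanded allele (Hdh Q7/Q200) and controls were Hdh Q7/Q7 littermates, all 9 months old, congenic on 129S4 and heterozygous for both Cre and RiboTag. The authors state this breeding for the Gad2, PV and vGluT2 lines and do not describe the SST line. Controls of the SST line are thus not shown to be littermates. Cre was expressed from the Gad2, Pvalb (PV) or Slc17a6 (vGluT2) locus through an IRES, so an IP holds every cell that used that locus, and an SST line is given by the labels alone. The 106 libraries, 67 IP and 39 total RNA, came from 45 mice.

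Control and HD libraries numbered 6 and 6 in the cerebral Gad2 IP, 6 and 5 in the PV IP, 5 and 4 in the SST IP, 6 and 6 in the cerebral vGluT2 IP, 6 and 6 in the cerebellar Gad2 IP, and 5 and 6 in the cerebellar vGluT2 IP. Cerebral total RNA came from 3 and 3 mice of each of the Gad2, PV and vGluT2 lines, and from 4 and 3 mice of the SST line. Cerebral total RNA means here the Gad2, PV and vGluT2 lines, and that of the SST line was compared with the SST IP and otherwise added as an alternative, where it moved the count of HD calls from 21 to 96 and called no member. Cerebellar total RNA came from 3 and 3 mice of the Gad2 line and 4 and 4 of the vGluT2 line. The depth of a library lay between 21905221 and 107753586 counts (median 35866725). Levels are given as CPM, counts scaled to a common library size, with TMM factors over all 106 libraries.

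The targeted cell types were checked by their defining markers. Pvalb stood at 485 to 753 CPM in control PV IPs and Sst at 842 to 1580 in control SST IPs. Gad2 was at 186 to 320 CPM in control cerebellar Gad2 IPs against 12.9 to 34.3 in control cerebellar vGluT2 IPs. Slc17a6 itself was present in control vGluT2 IPs, at 37.7 to 156 CPM in cerebrum and 22.2 to 111 in cerebellum. Gabra6, a receptor subunit of mature granule cells, stood at 1030 to 1560 CPM in control cerebellar vGluT2 IPs and was still at 78.7 to 187 in control cerebellar Gad2 IPs, so granule cell RNA was not absent there.

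Some libraries stood apart before any comparison. A length index, the mean log2 level of long genes less that of short genes, was 1.36 to 1.64 in the control and 0.52 to 0.98 in the HD cerebellar total RNA of the vGluT2 line, with no overlap. The Gad2 line had 1.01 to 1.72 in control and 0.73 to 1.68 in HD cerebellar total RNA. Slc17a7, a transporter of glutamatergic neurons, was at 1100 to 1310 CPM in the HD and 474 to 731 in the control libraries of that vGluT2 line. The part of this shift in the results was not tested, so the members called there, and Cdk4, Cdkn1a and Rb1, are given by line and with the length index as a covariate as well.

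The count of calls in cerebellar total RNA also turned on the line and on single libraries. Of 14477 genes tested there 3544 were called, with the vGluT2 line alone 7565, with the Gad2 line alone 0 by edgeR, and with the length index as a covariate 80. Leaving out control replicates 1, 2, 3 or 4 of the vGluT2 line gave 104, 104, 127 and 143, and HD replicates 1, 2, 3 or 4 gave 1278, 125, 122 and 96. In the Gad2 line, leaving out control 2 gave 302, HD 2 gave 118 and HD 3 gave 7408. In the IPs, HD replicate 4 of the cerebellar Gad2 IP stood apart in several of the 10 genes, with Rb1 at 10.7 CPM against 32.1 in the next library and Cdkn1b at 54.6 against 125. Control replicate 4 of that IP, a different mouse, was also lowest for both, with Rb1 at 15.1 (next 27.3) and Cdkn1b at 64.2 (next 114). In the cerebral Gad2 IP replicate 4 was likewise lowest for both genes in either genotype.

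The question of each HD against control comparison is which of the 10 genes differ between genotypes within a cell type. A gene was called where edgeR (quasi-likelihood F-test) gave an adjusted p of 0.05 or less, adjusted by Benjamini and Hochberg's method over every gene tested, and adjusted p-values are of that kind unless DESeq2 is named. In the cerebellum 2 genes stood out. Ccnd1 was higher in HD mice in both IPs and in total RNA, and Plk5 was lower in the vGluT2 IP and in total RNA. Ccnd3 passed the test in cerebellar total RNA, and no other member passed it in any of the 8 comparisons.

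Of 9 members tested in the cerebellar vGluT2 IP 2 were called, where 2.11% of all genes (285) were. Leaving out control 1, 2, 3 or 4 there gave 149, 173, 169 and 188 genes, and HD 1 or 5 gave 152 and 173. In the cerebellar Gad2 IP it was 1 of 9, with 0.0142% of all genes, and in cerebellar total RNA 3 of 10, with 24.5% of all genes, a share close to that background. Cdk6 fell under the count filter in both cerebellar IPs. In the cerebrum 0 of 10 members were called in the Gad2 IP (background 0.0279%), the PV IP (0.034%), the SST IP (0%), the vGluT2 IP (0.00697%) and total RNA (0.141%). In that order 2, 1, 1, 3 and 1 members had an unadjusted p under 0.05, where 9.15%, 4.28%, 1.41%, 7.28% and 6.62% of all genes had one, and DESeq2 called 0 members in each. The 0% of the SST IP stands for 0 of 14689 genes by edgeR, with 207 genes at an unadjusted p under 0.05 and 2 called by DESeq2.

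The median log2 change of the members was 0.04 in the cerebral Gad2 IP (all genes -0.01), -0.09 in the PV IP (0.0), 0.11 in the SST IP (0.01), -0.22 in the cerebral vGluT2 IP (-0.02), 0.01 in the cerebellar Gad2 IP (0.0), 0.04 in the cerebellar vGluT2 IP (-0.01), 0.03 in cerebral total RNA (0.02) and 0.01 in cerebellar total RNA (-0.01). The members' signs were mixed in each of them. Plk5 was below 0 in 8 of 8 comparisons, also under every alternative run for them, while Ccnd1 was above 0 in 6 and below in 2. IPs and total RNA share mice, as do both regions of a line, so these signs are not independent of each other.

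**Figure D1:**
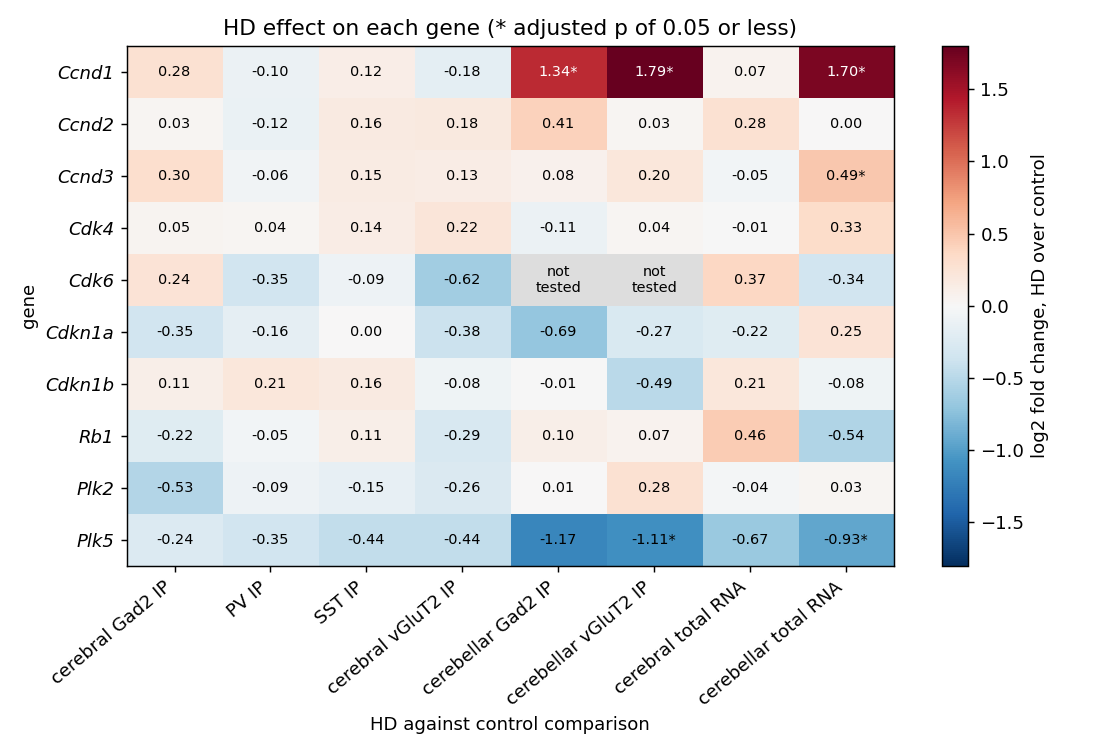
Log2 change between HD and control libraries for the 10 genes (vertical axis) in the 6 IPs and in total RNA of both regions (horizontal axis). Colour and number give the log2 change, and a star marks an adjusted p of 0.05 or less. Ccnd1 is starred in the 3 cerebellar columns and Plk5 in 2 of them.

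Ccnd1 encodes cyclin D1, the partner of CDK4 and CDK6 that most growth signals act on. Its level in the cerebellar vGluT2 IP was 28, 32.6, 36.2, 30.9 and 22.9 CPM in the 5 control libraries and at 77.4 to 114 in the 6 HD libraries (median 107). Every HD library lay above every control library, and the lowest HD library was more than double the highest control. The mean was 30.1 ± 5.01 CPM (SD, n = 5) in control and 101 ± 14.1 (n = 6) in HD IPs. That is a log2 change of 1.79 (SE 0.11, 3.47-fold, adjusted p = 3.44e-06, higher in 6 of 6 HD libraries), and it was called under all 9 alternatives (adjusted p of 8.2e-50 to 0.00105) and without any 1 of the 11 libraries.

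In total RNA of the cerebellum the same gene was as high in HD mice. In the Gad2 line the 3 control libraries read 25.5, 28.9 and 29.6 CPM and the HD libraries 89.2, 88.3 and 75.3. In the vGluT2 line the 4 controls read 27.1, 27.5, 27.7 and 27.1 CPM and the HD libraries 77.8, 84.5, 94.9 and 107. No HD library of either line came near a control, and the controls of both lines lay within a few CPM of each other. Over both lines Ccnd1 rose by 1.70 on the log2 scale (SE 0.098, 3.24-fold, adjusted p = 4.04e-07, higher in 7 of 7 HD libraries).

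Ccnd1 in total RNA was also taken apart by line. With the length index as a covariate the log2 change was 1.60 (adjusted p = 1.41e-06). In the vGluT2 line alone it was 1.76 (SE 0.13, adjusted p = 3.29e-05). In the Gad2 line alone, with 3 mice a genotype, it was 1.61 with an unadjusted p of 2.63e-05 and an adjusted p of 0.374, which missed the threshold. Adjusted p-values over the alternatives for this result ran from 2.51e-56 (DESeq2) to 0.374.

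In the cerebellar Gad2 IP Ccnd1 started from a lower level. Control libraries stood at 6.03 to 10.2 CPM (median 7.95) and HD libraries at 11.9 to 30.2 (median 20.3). The groups did not overlap, though HD replicate 4, at 11.9 CPM, came close to the highest control. The log2 change was 1.34 (SE 0.18, 2.52-fold, adjusted p = 0.0402, higher in 6 of 6 HD libraries).

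The call of Ccnd1 in the Gad2 IP was close to the threshold. Without HD replicate 4 it was firmer, at 1.44 with an adjusted p of 0.00245, but leaving out any 1 of the 6 control libraries or HD replicates 1, 2, 3, 5 or re1 ended it, with adjusted p-values of 0.0586 to 0.144 and log2 changes of 1.23 to 1.39. It was also lost when all gene types were tested (adjusted p = 0.0531), and adjusted p-values over the alternatives ran from 3.43e-08 to 0.214.

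Granule cell markers were given beside these results because the Gad2 IP held some of their RNA. Summed over Gabra6, Cntn2, Zic1, Etv1 and Neurod1, they came to 511 to 1020 CPM in control (median 760) and 365 to 1050 in HD (median 888) cerebellar Gad2 IPs, with Zic1 the most abundant and none at 0. In that IP 0 of the 5 were called by edgeR, 1 was above 0, and the median log2 change was -0.01. The same sum in the cerebellar vGluT2 IP was 4320 to 5930 CPM in control (median 5590) and 2400 to 5160 in HD libraries (median 4040), again with Zic1 the most abundant and none at 0. Neurod1 was called there, with a log2 change of -0.87 (SE 0.16, adjusted p = 0.00914), 0 of 5 were above 0 and the median was -0.44. Ccnd1 went the other way from these markers in that IP, and their part in its rise was not tested. In these bulk libraries more cells with a transcript and more transcript per cell cannot be told apart, nor can fewer cells and less RNA per cell.

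LTO1, which overlaps Ccnd1 on the opposite strand, had log2 changes of 0.04 in the cerebellar Gad2 IP, 0.13 in the vGluT2 IP and 0.07 in cerebellar total RNA, and was not called in any of the 3. The libraries were stranded, while the use of strand in counting is not given in the sources used here, so reads of overlapping genes may be shared.

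In the cerebrum Ccnd1 did not differ beyond its spread. Control and HD libraries ran from 8.36 to 15.4 and from 7.25 to 19.5 CPM in the Gad2 IP, from 14.2 to 20.1 and from 10.6 to 23.4 in the PV IP, and from 17.0 to 24.5 and from 17.7 to 26.7 in the SST IP. In the cerebral vGluT2 IP controls ran from 7.7 to 11.3 CPM and HD libraries from 2.98 in replicate re1 to 11.4. The groups overlapped in all 4 IPs, and in total RNA of the Gad2, PV, SST and vGluT2 lines as well. Log2 changes were 0.28 (SE 0.22, adjusted p = 0.589) in the Gad2 IP, -0.18 (SE 0.23, adjusted p = 0.826) in the vGluT2 IP and 0.07 (SE 0.093, adjusted p = 0.841) in cerebral total RNA.

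Whether the HD effect differs between regions or cell types was tested as an interaction. The effect on Ccnd1 was larger in the cerebellar than in the cerebral vGluT2 IP, by 1.99 on the log2 scale (SE 0.26, adjusted p = 0.000424), the 1 call among 10 members where 0.323% of all genes were called. For mice of the Gad2 and vGluT2 lines it was also larger in cerebellar than in cerebral total RNA, by 1.64 (SE 0.14, adjusted p = 3.18e-07), again the 1 call among 10 members, with 0.222% of all genes (33 genes, and 3563 once blocked by mouse). For total RNA the difference was 1.84 (adjusted p = 0.00161) in the vGluT2 line alone and 1.5 (unadjusted p = 9.36e-05, adjusted p = 1.0) in the Gad2 line alone, and adjusted p-values over the alternatives ran from 9.45e-23 to 1.0. The vGluT2 line alone also called this difference for Rb1 (-1.92, adjusted p = 0.00982), Cdkn1a (0.79, 0.0103), Cdk4 (0.78, 0.0111) and Ccnd3 (0.97, 0.0123). With Ccnd1 these made 5 of the 10 members, in a fit that called 7544 genes, where 14885 were tested over both lines. The Gad2 line alone called 0 members and 0 genes by edgeR, with 1 member at an unadjusted p under 0.05.

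Between Gad2 IPs of both regions the difference was 1.04 (SE 0.30, unadjusted p = 0.00206, adjusted p = 0.662), and edgeR called 0 of 14472 genes there (777 at an unadjusted p under 0.05, 21 by DESeq2). That makes 0 of 10 members at a background of 0%, with 3 members at an unadjusted p under 0.05 and 0 by DESeq2. Within the cerebellum the effect on Ccnd1 in the vGluT2 IP exceeded that in the Gad2 IP by 0.43 (SE 0.22, adjusted p = 0.721), which did not pass. In that comparison 0 of 9 members were called by edgeR (0 at an unadjusted p under 0.05, 0 by DESeq2) and 0.107% of all genes. Relative to total RNA of the same line, the effect on Ccnd1 differed by 0.03 (adjusted p = 0.908) in the vGluT2 IP and by -0.25 (adjusted p = 1.0) in the Gad2 IP. These comparisons share libraries with the HD against control tests and are no further evidence for them.

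**Figure D2:**
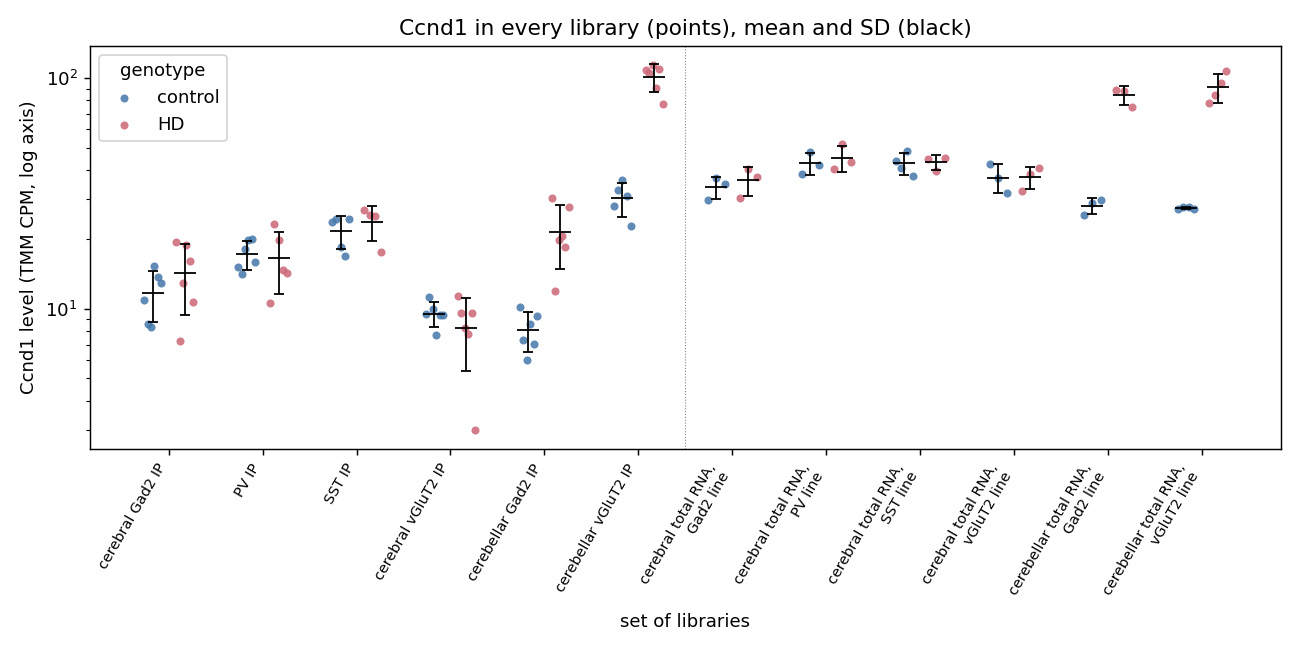
Ccnd1 in every library, as TMM-scaled CPM on a log axis, for control and HD libraries of the 12 sets (horizontal axis). Points are single libraries, and black marks give the mean and SD. Controls of the cerebellar vGluT2 IP lie between 22.9 and 36.2 CPM and HD libraries between 77.4 and 114.

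Among the 8 control groups compared Ccnd1 was highest in cerebral total RNA (37.8 ± 5.67 CPM, SD, n = 9, and 42.6 ± 4.67, n = 4, in that of the SST line, which was not in the order), followed by the cerebellar vGluT2 IP (30.1 ± 5.01, n = 5) and cerebellar total RNA (27.6 ± 1.32, n = 7), which did not differ from each other (adjusted p = 0.889). The SST IP (21.7 ± 3.62, n = 5) and the PV IP (17.3 ± 2.48, n = 6) came next and did not differ either (adjusted p = 0.0825). The cerebral Gad2 IP (11.7 ± 2.87, n = 6), the cerebral vGluT2 IP (9.55 ± 1.17, n = 6) and the cerebellar Gad2 IP (8.09 ± 1.57, n = 6) closed the order, with no neighbours different. HD cerebellar vGluT2 IPs, at 101 CPM, thus stood above the mean of each of these control groups. With these 8 control groups, 193 of 280 pairs of groups over the 10 members were called, or 10 genes in 28 pairs, where 58.4% of all tests over the same pairs were. Some of these groups share mice, and the order of levels used no block by mouse.

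In all 4 cerebral IPs and in the cerebellar Gad2 IP, Ccnd1 was lower on the tagged ribosomes than in total RNA. Log2 differences were -1.60 in the cerebral Gad2 IP (adjusted p = 2.79e-12), -1.22 in the PV IP (2.48e-11), -0.94 in the SST IP (1.39e-06), -2.16 in the cerebral vGluT2 IP (3.17e-15) and -1.95 in the cerebellar Gad2 IP (8.45e-15). The cerebellar vGluT2 IP had 0.04 (adjusted p = 0.667), which did not pass. Here and for the other genes the IPs of both genotypes were compared with total RNA of the region, for the SST IP with that of the SST line, and genotype was a covariate.

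Ccnd2, which encodes cyclin D2, divided the brain by region. Control means were 42.9 ± 4.63 CPM (SD, n = 5) in the SST IP, 39.0 ± 5.58 in the cerebral vGluT2 IP, 33.2 ± 8.08 in cerebral total RNA, 30.0 ± 3.91 in the cerebral Gad2 IP and 28.9 ± 3.7 in the PV IP, and no neighbours among these 5 differed. A step of 2.03 on the log2 scale (adjusted p = 3.32e-13) led down to the cerebellar Gad2 IP at 6.96 ± 2.2 CPM and cerebellar total RNA at 5.7 ± 1.21. A second step of 2.16 (adjusted p = 2.46e-12) led to the cerebellar vGluT2 IP, at 1.36 ± 0.553 CPM. Ccnd2 was thus lowest in the IP in which the level of Ccnd1 was highest.

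HD mice showed no called change of Ccnd2. Log2 changes were 0.03, -0.12, 0.16 and 0.18 in the cerebral Gad2, PV, SST and vGluT2 IPs, 0.28 in cerebral and 0.00 in cerebellar total RNA, and 0.03 in the cerebellar vGluT2 IP. In the cerebellar Gad2 IP controls ran from 2.94 to 9.18 CPM and HD libraries from 6.46 to 11.9. There 4 of 6 HD libraries lay above every control and 1 equalled the highest of them at 9.18 CPM, and the log2 change of 0.41 had an adjusted p of 1.0.

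Ccnd3 (cyclin D3) was spread more evenly, from 45.8 ± 10.6 CPM in cerebellar total RNA (SD, n = 7) to 14.7 ± 2.67 in the cerebral Gad2 IP (n = 6). No neighbours in its order differed, the closest being cerebellar against cerebral total RNA (adjusted p = 0.0506). Of its 28 pairs of control groups 19 were called, where 58.4% of all tests over such pairs were. It was lower in the IP than in total RNA in all 6 sets, by log2 differences of -0.74 in the cerebellar vGluT2 IP to -1.14 in the cerebral Gad2 and vGluT2 IPs, each called.

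In cerebellar total RNA of the Gad2 line Ccnd3 read 42.2, 55.1 and 62.6 CPM in controls and 41.6, 60.9 and 74.0 in HD mice. In the vGluT2 line controls ran from 31.0 to 47.9 CPM and HD libraries from 59.4 to 73.4. The groups overlapped in the Gad2 line and not in the vGluT2 line, which is the line whose length index also differed. Over both lines the log2 change was 0.49 (SE 0.17, 1.41-fold, adjusted p = 0.0485), with 5 of 7 HD libraries above every control of their line.

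The Ccnd3 call rested on the vGluT2 line. There it was 0.73 (adjusted p = 0.00299), against 0.16 (adjusted p = 1.0) in the Gad2 line and 0.07 (adjusted p = 0.833) with the length index as a covariate, the range over the alternatives being 0.00299 to 1.0. Left out singly, Gad2-line control 2 and HD 1 or 2, and each of the 4 control and 4 HD libraries of the vGluT2 line, ended the call, with adjusted p-values of 0.0629 to 0.102, while it held without Gad2-line control 1 (0.023), control 3 (0.0351) or HD 3 (0.00389). Bysl, which overlaps Ccnd3 on the opposite strand, was called in the same comparison, with a log2 change of 0.63 (SE 0.16, adjusted p = 0.028). In the cerebellar IPs Ccnd3 changed by 0.08 and 0.20 and was not called.

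**Figure D3:**
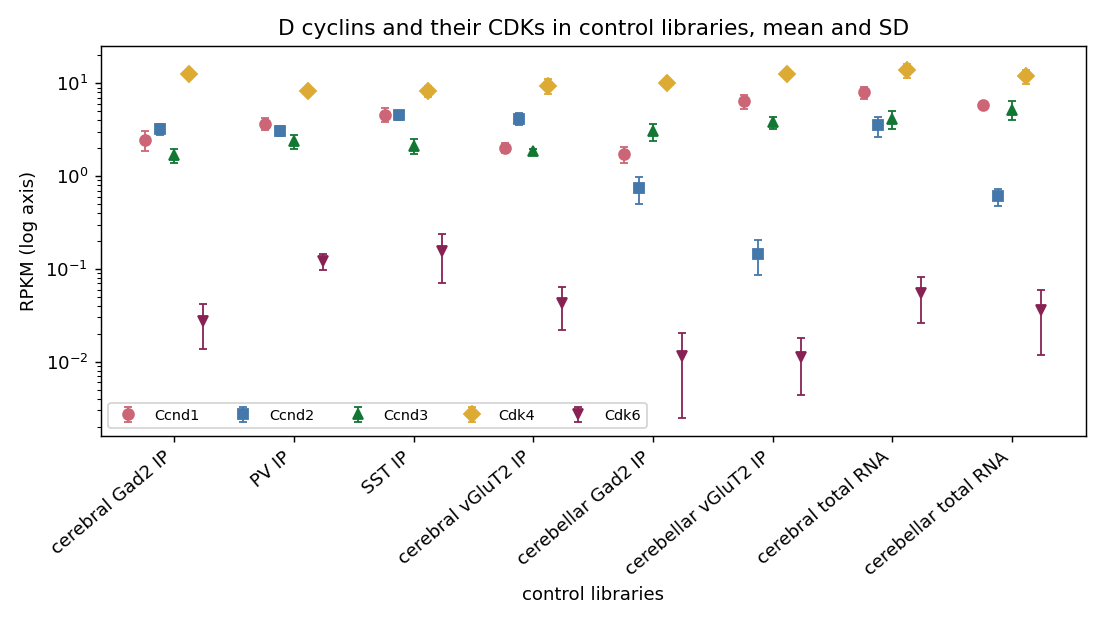
Ccnd1, Ccnd2, Ccnd3, Cdk4 and Cdk6 in the 8 control groups as RPKM on a log axis, mean and SD over libraries. Ccnd2 reaches 4.56 RPKM in the SST IP and 0.145 in the cerebellar vGluT2 IP, and Cdk6 is the lowest of the 5 in each group.

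Per length, by the union of exons, the D cyclin with the highest mean in control mice differed between groups. Ccnd1 led in the PV IP (3.67 RPKM, Ccnd2 3.07), the SST IP (4.61, Ccnd2 4.56), the cerebellar vGluT2 IP (6.4, Ccnd3 3.82, Ccnd2 0.145) and total RNA of cerebrum (8.03) and cerebellum (5.86). Ccnd2 led in the cerebral Gad2 IP (3.19 RPKM, Ccnd1 2.48) and the cerebral vGluT2 IP (4.14, Ccnd1 2.03), and Ccnd3 in the cerebellar Gad2 IP (3.03, Ccnd1 1.72). The order of the D cyclins depended on the length used. Ccnd1 was above Ccnd3 in 7 of 8 control groups by the union of exons and in 2 of 8 by the longest transcript. Ccnd1 was above Ccnd2 in 6 and 5 groups by the same lengths, and Ccnd2 above Ccnd3 in 4 and 3.

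The kinases that these cyclins activate differed widely in level. Cdk4 lay between 26.7 ± 3.33 CPM in the SST IP (SD, n = 5) and 44.9 ± 8.12 in cerebral total RNA (n = 9). No neighbours in its order differed, while 14 of its 28 pairs of control groups were called. Cdk6 reached 2.18 ± 1.18 CPM in the SST IP and 1.69 ± 0.341 in the PV IP, against 0.157 ± 0.0973 in the cerebellar vGluT2 IP. Its raw counts ran from 0, in 4 libraries, to 182. Per length Cdk4 was above Cdk6 in 8 of 8 control groups, at 12.5 against 0.0113 RPKM in the cerebellar vGluT2 IP and 8.23 against 0.156 in the SST IP.

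Cdk6 was higher in the IP than in total RNA in 2 sets, by 0.80 on the log2 scale in the PV IP (adjusted p = 0.00234) and 1.43 in the SST IP (0.00107). In the other 4 sets it was lower, by -0.88 to -2.0. With the mouse as a block 3 of those 4 were no longer called, the cerebral vGluT2 IP (-1.40, adjusted p = 0.288), the cerebellar Gad2 IP (-1.28, 0.124) and the cerebellar vGluT2 IP (-1.64, 0.0825). Its HD effect in the cerebellar IPs was tested under 2 alternatives that kept such low counts, and was not called (log2 changes of 0.22 to 0.23 in the Gad2 IP, adjusted p = 1.0, and -0.92 to -0.87 in the vGluT2 IP, adjusted p of 0.525 to 0.651).

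Neither kinase was called between genotypes. In cerebellar total RNA of the vGluT2 line Cdk4 ran from 32.4 to 37.6 CPM in controls and from 45.4 to 58.4 in HD mice, without overlap, and in the Gad2 line from 34.7 to 50.2 and from 32.0 to 53.5. The pooled log2 change was 0.33 (SE 0.15, adjusted p = 0.106). It was called in the vGluT2 line alone (0.53, adjusted p = 0.00547, in a range of 0.00547 to 1.0 over the alternatives) and not in the Gad2 line alone (0.05) or with the length index as a covariate (-0.01, adjusted p = 0.984). It was also called without Gad2-line HD 3 (0.43, 0.00954) or control 1 (0.40, 0.0472). Tspan31, which overlaps Cdk4 on the opposite strand, was called in the pooled comparison at 0.43 (adjusted p = 0.0382).

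Cdk4 was 1 of 2 members, out of 10, whose HD effect differed between the cerebellar vGluT2 IP and total RNA of its line, where 28.6% of all genes (4066, and 2473 with the mouse as a block) were called. The difference was -0.49 (SE 0.18, adjusted p = 0.0429), and it was lost with the mouse as a block (-0.51, adjusted p = 0.0968). Outside the cerebellum Cdk4 changed by -0.01 to 0.22, and Cdk6 by -0.62 (SE 0.71) in the cerebral vGluT2 IP to 0.37 in cerebral total RNA.

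Among the brakes, Cdkn1b (p27), the inhibitor that is kept high in many cells at rest, was highest in the cerebellum. It stood at 425 ± 56.7 CPM in control cerebellar vGluT2 IPs (SD, n = 5), 181 ± 50.3 in cerebellar total RNA (n = 7) and 123 ± 32.5 in the cerebellar Gad2 IP (n = 6), each step called (adjusted p = 1.25e-05 and 0.0134). A further step (adjusted p = 2.91e-06) led to the cerebral groups, which ran from 52.1 ± 13.1 in the Gad2 IP to 41.2 ± 10.3 in the SST IP with no neighbours different. The IP was higher than total RNA in the cerebellar vGluT2 set by 0.89 on the log2 scale (adjusted p = 6.25e-06) and lower in the cerebellar Gad2 set by -0.50 (0.00396), the latter lost with the mouse as a block (-0.37, adjusted p = 0.064).

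HD cerebellar vGluT2 IPs had less Cdkn1b by their values, without a call. Controls ran from 342 to 499 CPM (median 436) and HD libraries from 178 to 435 (median 305). All but 1 of the HD libraries lay below every control. The log2 change was -0.49 (SE 0.15, 1.41-fold, unadjusted p = 0.00618, adjusted p = 0.129, lower than every control in 5 of 6). DESeq2 called it (adjusted p = 0.044), as did the fit with the length index (-0.53, adjusted p = 0.0298), in a range of 0.0298 to 0.295 over the alternatives, and leaving out single libraries gave 0.0591 to 0.275.

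Cdkn1a encodes p21, the CDK inhibitor induced by p53. Its control levels were alike in 5 groups, from 16.3 ± 3.97 CPM in cerebral total RNA (SD, n = 9) to 14.9 ± 1.83 in the cerebellar Gad2 IP (n = 6). Lower groups were the cerebellar vGluT2 IP at 9.56 ± 2.83 (adjusted p = 0.00422 to the one above), the SST IP at 6.65 ± 1.89 and the PV IP at 3.14 ± 0.533 (adjusted p = 0.000155 to the SST IP). The IP was lower than total RNA in the PV set (-2.36, adjusted p = 6.83e-16), the SST set (-1.33, 3.53e-07), the cerebellar vGluT2 set (-1.08, 3.62e-07) and the cerebellar Gad2 set (-0.48, 0.00806). In controls cerebellar total RNA (15.0 ± 1.82 CPM) and the cerebellar Gad2 IP did not differ (adjusted p = 0.818). In HD mice their means were 17.9 ± 4.0 and 9.63 ± 1.82 CPM.

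In the cerebellar Gad2 IP Cdkn1a ran from 12.1 to 16.7 CPM in controls (median 15.1) and from 7.27 to 12.5 in HD mice (median 9.35). The highest HD library reached the range of the controls and the other 5 lay beneath it. The log2 change of -0.69 (SE 0.16, 1.61-fold, unadjusted p = 0.000575, lower than every control in 5 of 6) had an adjusted p of 0.624 and was called by DESeq2 alone (-0.67, adjusted p = 0.0493, the range over the alternatives being 0.0493 to 0.991). In the cerebral vGluT2 IP it was -0.38 (SE 0.13, adjusted p = 0.673, lower than every control in 4 of 6). In cerebellar total RNA the vGluT2 line alone gave 0.53 (adjusted p = 0.0105, in a range of 0.0105 to 1.0), the Gad2 line alone -0.13, both lines together 0.25 (adjusted p = 0.183) and the fit with the length index -0.01 (adjusted p = 0.984).

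Rb1 encodes the retinoblastoma protein, the substrate of the D cyclin kinases. Its level ran from 37.6 ± 7.94 CPM in control cerebellar vGluT2 IPs (SD, n = 5) to 12.5 ± 7.78 in cerebral total RNA (n = 9). No neighbours in its order differed, while 13 of its 28 pairs of control groups were called. The spread was wide within groups, and the lowest Rb1 and the lowest Cdkn1b fell in the same library in 11 of 12 IP groups. In control cerebral vGluT2 IPs replicate 1 had both the lowest Rb1 (7.78 CPM, next 19.9) and the lowest Cdkn1b (24.5, next 50.8), and in HD SST IPs replicate 4 did so (7.7, next 19.1, and 25.0, next 45.9). The library with the lowest Rb1 also had the lowest length index in 6 of the 12 groups, those 2 among them, and not in the other 6, and the part of the index in these values was not tested.

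No HD effect on Rb1 was called over both cerebellar lines. In total RNA of the vGluT2 line controls ran from 23.5 to 42.1 CPM and HD libraries from 8.95 to 22.4, without overlap, and in the Gad2 line from 17.0 to 42.4 and from 14.5 to 46.2, with broad overlap. Together the log2 change was -0.54 (SE 0.31, adjusted p = 0.183). It was called in the vGluT2 line alone (-1.06, SE 0.27, adjusted p = 0.00889, in a range of 0.00889 to 1.0) and without Gad2-line HD 3 (-0.76, 0.0319). The sign of Rb1 turned in the Gad2 line alone (0.14, adjusted p = 1.0) and with the length index as a covariate (0.25, adjusted p = 0.587). The cerebellar vGluT2 IP gave 0.07, and the difference between IP and total RNA of that line, 1.11 (SE 0.33, adjusted p = 0.0154), was the other of the 2 called there.

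Rb1 was not called between IP and total RNA in any of the 6 sets, with log2 differences of -0.01 to 0.50. With the mouse as a block it was called in the PV IP (0.63, adjusted p = 0.0141), the SST IP (0.79, 0.000157) and the cerebellar vGluT2 IP (0.73, 0.0243), each time higher in the IP. For cerebellar against cerebral total RNA the block likewise turned the difference in the HD effect into a call for Rb1 (-1.20, adjusted p = 0.0469, against -1.16 and 0.126 without it) and Ccnd3 (0.70, 0.0425, against 0.55 and 0.126).

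Plk2, a polo-like kinase that neurons induce with activity and that acts at synapses, was higher in the cerebral than in the cerebellar groups. It stood at 265 ± 27.8 CPM in the control cerebral vGluT2 IP (SD, n = 6) and 215 ± 37.9 in the cerebral Gad2 IP, with each lower step called down to cerebral total RNA at 127 ± 12.4, which the SST IP matched at 116 ± 12.7. The PV IP followed at 86.3 ± 7.1, the cerebellar Gad2 IP at 44.1 ± 5.7, cerebellar total RNA at 25.3 ± 1.84 and the cerebellar vGluT2 IP at 24.4 ± 3.57. It was higher in the IP than in total RNA in the cerebral vGluT2 (0.89, adjusted p = 3.65e-14), cerebral Gad2 (0.51, 2.35e-05) and cerebellar Gad2 sets (0.81, 3.03e-09), and lower in the PV set (-0.59, 2.52e-10).

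In the cerebral Gad2 IP Plk2 ran from 170 to 261 CPM in controls (median 222) and from 106 to 210 in HD mice (median 134). In the cerebral vGluT2 IP it ran from 218 to 297 (median 272) and from 168 to 242 (median 222). The groups overlapped in both. Log2 changes were -0.53 (SE 0.18, unadjusted p = 0.0106, adjusted p = 0.536, lower than every control in 4 of 6) and -0.26 (SE 0.084, unadjusted p = 0.00835, adjusted p = 0.666), and neither passed. In the cerebellum Plk2 changed by 0.01 to 0.28 and was not called. The difference between the vGluT2 IPs of both regions, 0.56 (SE 0.14, adjusted p = 0.0935), was called by DESeq2 alone (0.54, adjusted p = 0.0248).

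Plk5 encodes a polo-like kinase family member that is found mainly in brain. Its control level was highest in the cerebellar vGluT2 IP, at 146 ± 33.2 CPM (SD, n = 5), followed in called steps by cerebellar total RNA (47.7 ± 10.3, n = 7), the cerebral vGluT2 IP (29.8 ± 5.46, n = 6) and the cerebellar Gad2 IP (20.5 ± 5.99, n = 6), with adjusted p-values of 1.63e-08, 0.00133 and 0.0189. Cerebral total RNA (19.2 ± 4.37), the cerebral Gad2 IP (18.6 ± 4.7), the SST IP (15.8 ± 2.19) and the PV IP (12.5 ± 2.12) followed with no neighbours different. In both regions it was higher on the ribosomes of vGluT2 cells than in total RNA, by 1.38 in cerebellum (adjusted p = 7.42e-09) and 0.69 in cerebrum (4.63e-05), and it was lower in the cerebellar Gad2 IP (-1.33, 3.37e-08).

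Plk5 in the cerebellar vGluT2 IP read 155, 92.7, 178, 166 and 138 CPM in the 5 controls and 42.0 to 94.4 in the 6 HD libraries (median 58.8). HD replicate 4, at 94.4 CPM, was just above control replicate 2, at 92.7, and all other HD libraries lay below every control. Means were 146 ± 33.2 CPM (SD, n = 5) and 64.4 ± 21.2 (n = 6). Plk5 fell by 1.11 on the log2 scale (SE 0.24, 2.16-fold, adjusted p = 0.0325, lower than every control in 5 of 6).

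Leaving out either of the libraries that crossed gave Plk5 a lower adjusted p. Without control 2 the log2 change was -1.25 (adjusted p = 0.0196), without HD 4 -1.28 (0.0117) and without HD 1 -1.19 (0.0471). Without control 1, 3, 4 or 5, or HD 2, 3, 5 or 6, the adjusted p was 0.0542 to 0.0859 and the call was lost. With the length index as a covariate it was -1.11 (adjusted p = 0.00854), and without HD 4 and 6 together -1.33 (0.0229), the adjusted p over these and the other alternatives running from 9.86e-05 to 0.0701.

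Cerebellar total RNA showed the same direction. In the Gad2 line controls read 55.0, 43.2 and 60.4 CPM and HD libraries 25.3, 28.5 and 15.8, and in the vGluT2 line controls read 36.4, 56.8, 48.0 and 33.9 and HD libraries 35.0, 24.5, 19.8 and 22.6. The groups were apart in the Gad2 line, while in the vGluT2 line the highest HD library lay between the 2 lowest controls. Over both lines Plk5 fell by 0.93 on the log2 scale (SE 0.19, 1.91-fold, adjusted p = 0.0216, lower than every control in 6 of 7). With the length index as a covariate it was -1.23 (adjusted p = 0.0121), in the vGluT2 line alone -0.76 (0.0149) and in the Gad2 line alone -1.16 (unadjusted p = 0.00424, adjusted p = 1.0). The adjusted p over the alternatives ran from 0.000318 to 1.0. Leaving out vGluT2-line control 2 (adjusted p = 0.0597) or 3 (0.0531), or HD 2 (0.0536), 3 (0.0539) or 4 (0.0583), ended the call.

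In the cerebellar Gad2 IP Plk5 ran from 11.5 to 28 CPM in controls (median 20.7) and from 7.14 to 14.6 in HD mice (median 8.55). HD replicate 4 was the highest HD library by a wide gap (next 9.27) and the single one within the control range. The log2 change of -1.17 (SE 0.24, 2.25-fold, unadjusted p = 0.000187, lower than every control in 5 of 6) had an adjusted p of 0.377. It was called without HD replicate 4 (-1.38, adjusted p = 0.0472), by DESeq2 (-1.16, 0.00628) and with all IP libraries in one fit (-1.12, 0.0014), in a range of 0.0014 to 1.0.

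The cerebral values of Plk5 lay below 0 in every comparison and none was called. In the cerebral vGluT2 IP controls ran from 24.3 to 37.5 CPM (median 28.4) and HD libraries from 17.4 to 26.6 (median 20.7). In the SST IP controls read 14.5, 12.9, 18.2, 17.6 and 15.7 CPM and HD libraries 11.7, 10.4, 13.3 and 11.5. Both pairs of groups overlapped by a single HD library.

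Log2 changes of Plk5 were -0.44 in the cerebral vGluT2 IP (SE 0.15, unadjusted p = 0.0109, adjusted p = 0.666, lower than every control in 5 of 6), -0.44 in the SST IP (SE 0.16, adjusted p = 1.0), -0.35 in the PV IP (SE 0.15, adjusted p = 1.0) and -0.24 in the cerebral Gad2 IP (SE 0.18, adjusted p = 0.571). In cerebral total RNA it was -0.67 (SE 0.19, 1.6-fold, unadjusted p = 0.0029, adjusted p = 0.284), with 7 of 9 HD libraries below every control of the same line. With the length index as a covariate that value became -0.60 with an adjusted p of 0.000407, in a range of 0.000407 to 0.286 over the alternatives.

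No difference between HD effects on Plk5 passed the test. It was -0.65 between the vGluT2 IPs of cerebellum and cerebrum (adjusted p = 0.626), -0.94 between the Gad2 IPs (SE 0.31, adjusted p = 0.833), 0.03 between the cerebellar IPs (adjusted p = 0.988) and -0.27 between total RNA of both regions (adjusted p = 0.51). An HD effect on Plk5 particular to the cerebellum is thus not shown. For the cerebral Gad2 and vGluT2 IPs, 0 of 10 members differed in their HD effect, with 0% of all genes called by edgeR (209 genes and 0 members at an unadjusted p under 0.05, 1 gene and 0 members by DESeq2). For the cerebellar Gad2 IP and its total RNA it was 0 of 9, with 0% of all genes (117 genes and 0 members at an unadjusted p under 0.05, 8 genes and 0 members by DESeq2).

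**Figure D4:**
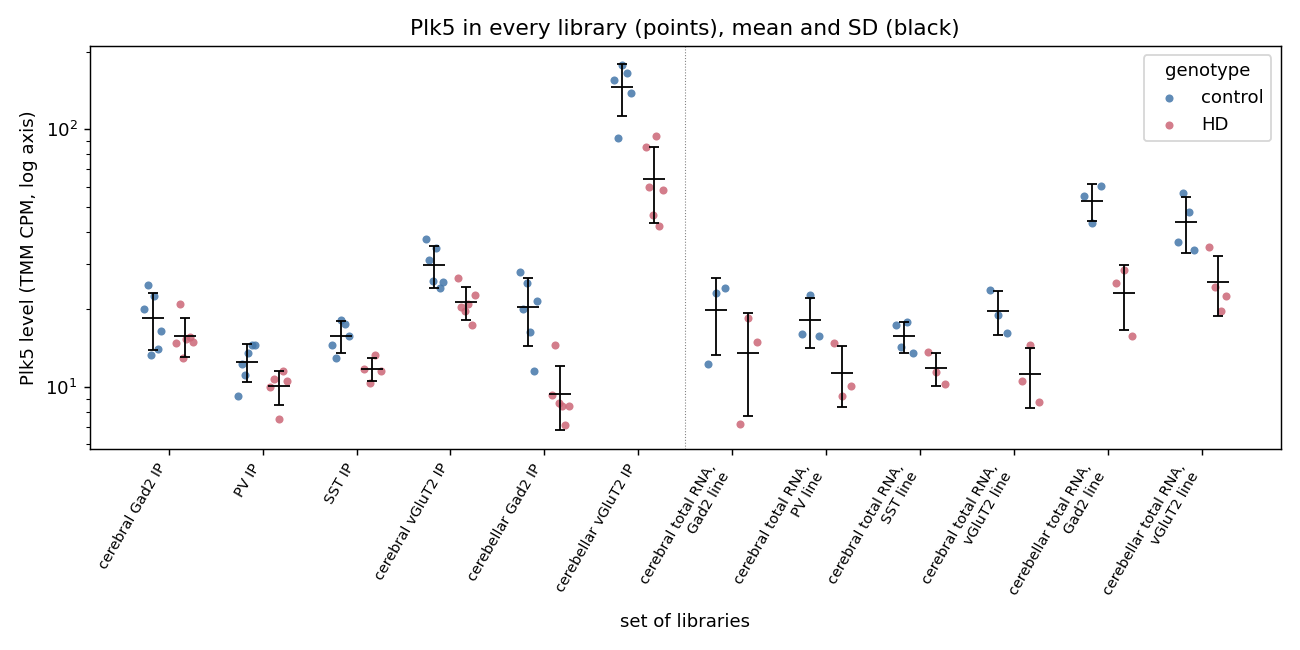
Plk5 in every library, as TMM-scaled CPM on a log axis, for control and HD libraries of the 12 sets (horizontal axis). Points are single libraries, and black marks give the mean and SD. In the cerebellar vGluT2 IP controls lie between 92.7 and 178 CPM and HD libraries between 42.0 and 94.4.

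Per length, Plk2 was above Plk5 in 6 of 8 control groups and below it in the cerebellar vGluT2 IP (5.43 against 54.5 RPKM) and cerebellar total RNA (5.63 against 17.8). In the cerebral vGluT2 IP the order was the reverse, with Plk2 at 59 and Plk5 at 11.1 RPKM. Cdkn1b was above Cdkn1a in 8 of 8 groups, at 93.3 against 2.69 RPKM in the cerebellar vGluT2 IP. At that level Cdkn1b had the highest RPKM of the 10 genes in any control group.

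Because Plk2 was highest in the cerebral and Plk5 in the cerebellar vGluT2 IP, their promoters are shown side by side, from 250 bases before to 50 after the start of transcription. RefSeq promoters (build GRCm38.p6) were matched by symbol for 7 of the 10 members, and those of Ccnd1, Ccnd2 and Rb1 are not among them. Both lie on the + strand, Plk2 at chr13:110394794-110395093 and Plk5 at chr10:80356209-80356508. Capitals mark GGGCGG (a GC box) and TGACGTCA (a cAMP response element) on either strand.
Plk2: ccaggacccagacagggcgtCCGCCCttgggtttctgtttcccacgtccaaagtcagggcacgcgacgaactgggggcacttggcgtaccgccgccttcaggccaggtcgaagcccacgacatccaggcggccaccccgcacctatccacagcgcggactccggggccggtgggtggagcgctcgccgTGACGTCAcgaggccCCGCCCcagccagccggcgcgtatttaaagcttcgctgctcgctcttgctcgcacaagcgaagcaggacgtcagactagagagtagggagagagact
Plk5: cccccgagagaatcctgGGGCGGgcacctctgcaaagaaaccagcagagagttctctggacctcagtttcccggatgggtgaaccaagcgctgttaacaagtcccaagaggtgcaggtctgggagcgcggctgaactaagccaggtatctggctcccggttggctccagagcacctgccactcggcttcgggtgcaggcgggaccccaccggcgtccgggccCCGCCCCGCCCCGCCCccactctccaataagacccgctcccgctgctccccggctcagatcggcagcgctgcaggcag
The window of Plk5 holds GGGCGG 4 times, with 3 of the matches overlapping by a letter, and the Plk2 window holds it 2 times and TGACGTCA 1 time. Of 32851 promoters of the same length 35.7% hold GGGCGG and 1.79% TGACGTCA. CACGTG (an E box, in 7.15% of promoters) occurs 4 times in the Cdk4 window and 1 time in that of Cdk6. TTTNGCGC (E2F, 1.38%), TGANTCA (AP-1, 7.81%) and GCGNGGGCG (EGR, 5.55%) have 0 matches in the windows of all 7 members. A match is a description of these letters and not of a bound site.

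The members were also compared between the IPs and total RNA of the same region. Members called higher and lower in the IP were 1 and 4 of 10 in the cerebral Gad2 set (background 63.5%), 1 and 7 in the PV set (73.2%), 2 and 4 in the SST set (63.4%), 2 and 4 in the cerebral vGluT2 set (63.6%, or 9437 genes, and 6134 with the mouse as a block), 2 and 7 in the cerebellar Gad2 set (67.4%) and 2 and 5 in the cerebellar vGluT2 set (68.3%). These shares are near those of all genes. With the mouse as a block the cerebellar vGluT2 set had as many higher as lower calls, Rb1 joining the former and Cdk4 and Cdk6 leaving the latter. Ccnd3 was called lower in all 6 sets, also with that block.

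The direction for Ccnd2 depended on the set. It was lower in the cerebellar vGluT2 IP than in total RNA by a log2 difference of -2.17 (adjusted p = 2.27e-09) and higher in the SST IP by 0.34 (0.0166). With the mouse as a block its calls were lost in the cerebral Gad2 IP (-0.34, adjusted p = 0.0813, against -0.28 and 0.0409), the PV IP (-0.22, 0.284, against -0.39 and 0.00634) and the cerebellar Gad2 IP (0.50, 0.126, against 0.51 and 0.00185). So were those of Plk5 in the PV IP (-0.24, 0.145, against -0.48 and 0.00321) and Cdk4 in the cerebellar vGluT2 IP (-0.35, 0.0535, against -0.23 and 0.0438).

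The wider pathway was followed through lists of genes. Of 76 to 79 listed genes outside the 10 that were tested per comparison, 0 were called by edgeR in any of the 6 IPs or in cerebral total RNA. At an unadjusted p under 0.05 there were 2 in the cerebral Gad2 IP, 9 in the PV IP, 8 in the SST IP, 3 in the cerebral vGluT2 IP, 1 in the cerebellar Gad2 IP, 8 in the cerebellar vGluT2 IP and 3 in cerebral total RNA. The shares of all genes at that p were 9.15%, 4.28%, 1.41%, 7.28%, 2.3%, 15.5% and 6.62% in the same order. DESeq2 called 3 listed genes in the cerebellar vGluT2 IP, where it called 4.92% of all genes, 1 in cerebral total RNA (0.8% of all genes) and 0 in the other 5.

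For the cerebellar vGluT2 IP, where the log2 change of Ccnd1 was highest, the median log2 change was -0.06 for 12 DNA replication and mitosis genes tested, -0.22 for 6 S and M phase cyclins and CDKs, 0.04 for 11 pocket proteins, E2F and DP factors, and -0.07 for 12 p53 target genes, beside -0.01 for all genes. The other CDK inhibitors had 0.20 (4 tested), the other polo-like kinases -0.01 (3), the genes of D cyclin turnover and CDK activation 0.01 (8) and the postmitotic cyclins and CDKs -0.14 (9). None of these genes was called there.

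Immediate early genes, which activity induces as it does Plk2, had a median log2 change of -0.43 in the PV IP and -0.57 in the SST IP, with 0 of 12 above 0 in each. They had -0.12 in the cerebral vGluT2 IP, with 1 of 12 above 0, -0.27 in cerebral total RNA, with 1 of 12, and -0.15 in the cerebral Gad2 IP, with 4 of 12. The cerebellar Gad2 IP had 0.07, with 6 of 11 above 0, and the cerebellar vGluT2 IP -0.13, with 4 of 11. In the PV IP and in the SST IP 7 of the 12 had an unadjusted p under 0.05, beside 4.28% and 1.41% of all genes, and 0 were called by edgeR or DESeq2. Plk2 changed by -0.09 and -0.15 in those IPs. In the SST line all mice of 1 code series were controls and the other series held both genotypes. Within the latter edgeR called 0 of 14721 genes in the SST IP, with 208 at an unadjusted p under 0.05.

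Listed genes outside the 10 were called for the difference in HD effect between the cerebellar vGluT2 IP and total RNA of its line. They went both ways, with Tfdp2 at 1.43 (SE 0.14, adjusted p = 8.83e-07) and Cdk5r2 at -0.81 (SE 0.21, 0.00647), where 28.6% of all genes were called. Among the HD against control comparisons cerebellar total RNA was the 1 in which edgeR called such genes, 17 of 77 where 24.5% of all genes were. The calls went both ways. Among the pocket proteins and E2F and DP factors 1 was higher and 3 lower of 11, with Rbl1 (p107) at -1.12 (SE 0.33, adjusted p = 0.034), Tfdp2 at -0.77 (SE 0.22, 0.0321), Rbl2 at -0.39 (SE 0.12, 0.0382) and E2f2 at 0.75 (SE 0.22, 0.0349). Among p53 target genes 0 were higher and 4 lower of 13, with Pmaip1 at -1.34 (SE 0.43, 0.0405), Ccng1 at -1.04 (SE 0.30, 0.0324), Mdm2, the ligase that turns over p53, at -0.75 (SE 0.22, 0.034) and Sesn1 at -0.35 (SE 0.11, 0.0382).

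Of the remaining lists the immediate early genes had 0 calls by edgeR and by DESeq2 (2 of 11 at an unadjusted p under 0.05), and each other list had 1 or 2. Cdkn1c, a further CDK inhibitor, was higher by 0.75 (SE 0.24, adjusted p = 0.0388), the 1 call among 4, and Plk3 by 0.63 (SE 0.21, 0.0445), the 1 call among 3. Ccnb2, a mitotic cyclin, was lower (-1.12, SE 0.35, 0.0382), the 1 call among 5. Of 13 replication and mitosis genes Mcm3 was higher (0.53, SE 0.18, 0.0444) and Mcm4 lower (-0.57, SE 0.18, 0.0376), both subunits of the replicative helicase.

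Fbxo31, which targets cyclin D1 for degradation, was higher (0.50, SE 0.13, adjusted p = 0.0293), as was Ambra1 (0.35, SE 0.12, 0.0436), the 2 calls among 8 genes of D cyclin turnover and CDK activation. Cdk5r2 (0.58, SE 0.15, 0.0297) and Cdk5 (0.38, SE 0.12, 0.0382) were the 2 calls among 9 postmitotic cyclins and CDKs. Medians were 0.49 for the other CDK inhibitors, -0.12 for the pocket, E2F and DP list, 0.01 for S and M phase cyclins and CDKs, 0.15 for replication and mitosis, 0.02 for other polo-like kinases, -0.13 for p53 targets, 0.05 for turnover, 0.14 for the postmitotic list and 0.07 for immediate early genes, beside -0.01 for all genes.

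None of the 17 calls was made within the Gad2 line (0 of 77 called, 2 at an unadjusted p under 0.05). Nor was any made with the length index as a covariate (0 of 77, 9 at an unadjusted p under 0.05). The shares of all genes at that p are not given here for these fits. In the vGluT2 line alone 34 of 78 listed genes were called. That fit also called far more of all genes than both lines together, so its count alone does not set the listed genes apart. Cell type markers moved as well in cerebellar total RNA over both lines.

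Of 6 microglia markers 3 were higher, with Tmem119 at 0.66 (SE 0.15, adjusted p = 0.0275), and their sums were 93.3 to 98.0 CPM in HD and 84.5 to 96.8 in control libraries of the Gad2 line, and 127 to 141 and 80.6 to 94.0 in the vGluT2 line, with Csf1r the most abundant. Gad2 (-1.0, SE 0.23, adjusted p = 0.0279) and Gad1 (-0.35, SE 0.12, 0.0431), made by GABAergic neurons, were lower, and so were the Purkinje cell markers Foxp2 (-1.32, SE 0.40, 0.0363) and Calb1 (-0.56, SE 0.15, 0.0309). These lists also held Slc32a1 for GABAergic neurons and Pcp2, Car8 and Esrrb for Purkinje cells, whose values are not given here. Over all genes 24.5% were called in this comparison, so these calls alone do not show a change of a cell type. Granule cell markers summed to 1400 to 2650 CPM in HD and 1490 to 3050 in control libraries of the Gad2 line, and 1280 to 2320 and 1900 to 3060 in the vGluT2 line, and 0 of 5 were called by edgeR. No marker of these lists was at 0 in any group. Their part in the total RNA results was not tested.

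Genes with the most similar pattern were named by correlation of mean log2(CPM + 0.5) over the 24 groups, among 13357 genes, as a description, since groups share mice and region. Ccnd1 was nearest to Ilk (r = 0.920), Cbx2 (0.897) and Rela (0.888), Ccnd2 to Elfn2 (0.985), Egfem1 (0.983) and Pde2a (0.982), and Ccnd3 to Usf2 (0.974), Slc35b2 (0.973) and Slc19a1 (0.970). Cdk4 was nearest to Hsd17b10 (0.963), Rps27l (0.950) and Rpl36 (0.948), and Cdk6 to Akap13 (0.962), Kif5a (0.934) and Gm973 (0.927). Of the brakes, Cdkn1a was nearest to Fopnl (0.915), Nsmce1 (0.892) and Ppdpf (0.884), Cdkn1b to Ppm1d (0.993), Zic2 (0.982) and Zic1 (0.982), and Rb1 to Pkd2 (0.970), Kat6a (0.969) and Lats1 (0.966). Plk2 was nearest to Tiam2, Pnmal1 and Oscp1 (0.981 each), and Plk5 to Camk4 (0.927), Gmppa (0.920) and Gas7 (0.915). Zic1 and Zic2 are granule cell transcription factors, and Ccnd1, whose level follows genotype as well as cell type, had the weakest match but for Cdkn1a.

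In the annotation of GRCm38 the members lie as follows. Ccnd1 (ENSMUSG00000070348.5) is at chr7:144929931-144939925, Ccnd2 (ENSMUSG00000000184.12) at chr6:127125162-127152193 and Rb1 (ENSMUSG00000022105.6) at chr14:73183673-73325822, all on the - strand. On the + strand are Ccnd3 (ENSMUSG00000034165.16) at chr17:47505051-47599691, Cdk4 (ENSMUSG00000006728.12) at chr10:127063534-127067920, Cdk6 (ENSMUSG00000040274.11) at chr5:3341485-3531008, Cdkn1a (ENSMUSG00000023067.14) at chr17:29090976-29100727, Cdkn1b (ENSMUSG00000003031.14) at chr6:134920401-134925513, Plk2 (ENSMUSG00000021701.8) at chr13:110395046-110400844 and Plk5 (ENSMUSG00000035486.14) at chr10:80356459-80365489.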

How the data were processed

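The authors sequenced stranded mRNA libraries (TruSeq, paired reads of 100 bases), and 3 that failed were sequenced again at 150 bases. Libraries labelled re1 or re2, in the cerebellar Gad2, PV and cerebral vGluT2 IPs, are all HD and may be those. The deposited estimated counts were made by the authors on GRCm38.p6 with nf-core/rnaseq 3.0 (STAR, Salmon). Here they were rounded. ERCC spike-ins stayed out, at most 4.45% of a library. Each comparison was fitted with edgeR 4.0.16 (limma 3.58.1, R 4.3.3), using TMM and the quasi-likelihood F-test, keeping protein-coding genes whose mean count passed 10. Called means an adjusted p (Benjamini-Hochberg over all genes tested) of 0.05 or less. CPM and RPKM were computed from the deposited counts, RPKM with the union of exons in GENCODE M21. Alternatives were DESeq2 1.42.0, its size factors, other filters, all gene types, blocks, other sets of libraries, CPM without TMM, and leaving out each library. Chosen after seeing the data were the length index (4710 genes over 6000 bases less 1902 under 2000), single lines, Gad2-line total RNA, and HD 4 and 6 left out together. IP and total RNA of the same animals, by the mouse codes in the sample descriptions, pair in a block by mouse. The members and lists were chosen with earlier results of these data known. Named are all members, up to 6 called genes per list with the largest log2 change, and for each member the 3 genes with the highest correlation. The fits were tested on simulated data. Python 3.11.15 (numpy 2.4.6, pandas 2.3.3, scipy 1.17.1, matplotlib 3.10.9) made tables and figures.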

Additional observations from a re-analysis of the deposited data

Results flagged for a closer look

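Each of the 10 genes was looked at in every group of 4 to 10 libraries, 150 times in all, and in 15 of them a library lay far from the others. Chance does so in about 1 in 20 groups, and 1 library can count for several genes. HD replicate 4 of the cerebellar Gad2 IP was such a library for 4 of the 10 genes, with the lowest Rb1 (10.7 CPM, next 32.1), the lowest Cdkn1b (54.6, next 125), the highest Cdk4 (41.0, next 31.8) and the highest Plk5 (14.6, next 9.27). HD replicate 4 of the cerebral Gad2 IP, which by its code is from the same mouse, had the lowest Cdkn1b (25.1, next 54.9) and the highest Plk5 (20.9, next 15.6). Control replicate 1 of the cerebral vGluT2 IP had the lowest Rb1 (7.78, next 19.9) and the lowest Cdkn1b (24.5, next 50.8).

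The other single libraries were HD replicate 4 of the SST IP for Ccnd1 (17.7 CPM, next 25.2), control replicate 2 of the cerebellar Gad2 IP for Cdk4 (38.0, next 33.2), control replicate 4 of the same IP for Rb1 (15.1, next 27.3), and control replicate 1 of the PV IP for Plk2 (99.7, next 86.9). In total RNA of the SST line control replicate 1 stood apart for Cdkn1a (19.2, next 16.2) and Plk2 (109, next 131), and control replicate 4 for Rb1 (17.3, next 13.2).

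A test of the difference itself set HD effects apart in 4 cases, each a log2 difference. For Ccnd1 it was 1.99 between the vGluT2 IPs of cerebellum and cerebrum and 1.64 between total RNA of both regions. Between the cerebellar vGluT2 IP and total RNA of its line it was 1.11 for Rb1 and -0.49 for Cdk4, in a comparison that called 28.6% of all genes. With the mouse as a block the one for Cdk4 was no longer called (-0.51, adjusted p = 0.0968).

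ERCC spike-ins, which the comparisons do not use, made up as much as 4.45% of a library.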

How the results depend on the processing

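Of the values of the members' log2 change between HD and control libraries under the alternatives, 1449 kept their direction and their side of the threshold, 46 dropped out of the calls, 13 entered them, and 112 changed sign with no call on either side. No call changed sign. Ccnd1 in the cerebellar vGluT2 IP was called under all 9 alternatives and without each library.

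Counts of called genes moved more, and the cause was not tested. In the order cerebral Gad2 IP, PV IP, SST IP, cerebral vGluT2 IP, cerebellar Gad2 IP, cerebellar vGluT2 IP and cerebral total RNA, DESeq2 called 75, 42, 2, 25, 22, 663 and 119 genes in place of 4, 5, 0, 1, 2, 285 and 21. With all IP libraries in one fit the cerebral Gad2, PV, cerebral vGluT2, cerebellar Gad2 and cerebellar vGluT2 IPs gave 20, 0, 5, 13 and 548. For the cerebral vGluT2 IP all gene types, DESeq2 size factors and a fit without the filter gave 0 each, and for the cerebellar Gad2 IP 0, 1 and 1. With SST total RNA added, cerebral total RNA gave 96.

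Of the alternatives chosen after seeing the data, the length index gave 4 in the cerebral vGluT2 IP, 697 in the cerebellar vGluT2 IP, 423 in cerebral total RNA and 80 in cerebellar total RNA (3544 without it). The Gad2 line alone gave 0 and the vGluT2 line alone 7565 in cerebellar total RNA, and 0 and 7544, in place of 33, for cerebellar minus cerebral total RNA. These single-line fits also have fewer libraries.

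For differences between HD effects DESeq2 gave 67 in place of 15 (cerebellar vGluT2 minus cerebellar Gad2 IP), 126 in place of 46 (cerebellar minus cerebral vGluT2 IP), 21 in place of 0 (Gad2 IPs of both regions), 1 in place of 0 (cerebral Gad2 minus vGluT2 IP), 8 in place of 0 (cerebellar Gad2 IP minus total RNA) and 2023 in place of 33 (total RNA). With the mouse as a block, 2473 in place of 4066 were called for the cerebellar vGluT2 IP minus its total RNA, 3563 in place of 33 for total RNA of both regions, and 6134 in place of 9437 for the cerebral vGluT2 IP against total RNA. It changed no call of a member other than those given with the results.

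Leaving out 1 library gave 3 to 12 genes in the cerebral Gad2 IP, 0 to 4 in the PV IP, 0 to 1 in the SST IP and in the cerebral vGluT2 IP, 0 to 3 in the cerebellar Gad2 IP, 149 to 255 in the cerebellar vGluT2 IP, 4 to 43 in cerebral total RNA and 96 to 7408 in cerebellar total RNA. The highest counts of the Gad2 IPs, 12 in cerebrum and 3 in cerebellum, came without HD replicate 4.

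The labels do not say that HD and control mice of the same replicate number are pairs, and same-number correlations ran from -0.599 to 0.884. They were 0.884, 0.34 and 0.729 in cerebral total RNA of the Gad2 line, and at or under 0.1 for at least 1 number in every comparison. In the Gad2-line IPs, HD and control mice of the same number have neighbouring mouse codes, and whether these mark pairs is not stated. Control 6 and HD re1 of the cerebellar Gad2 IP have neighbouring codes too, but were not taken as the same number. Used as a block, the replicate numbers gave 9 genes in the cerebral Gad2 IP, 0 in the PV, cerebral vGluT2 and cerebellar Gad2 IPs, 1 in the SST IP, 108 in the cerebellar vGluT2 IP, 19 in cerebral total RNA and 9 in cerebellar total RNA. With this block Ccnd1 in the cerebellar Gad2 IP (adjusted p = 0.214), Plk5 in the cerebellar vGluT2 IP (0.0701) and in cerebellar total RNA (0.121), and Ccnd3 there (0.127) were not called.

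CPM without TMM left the calls between IP and total RNA within 1.5 times. In the SST IP it moved the median log2 difference of all genes from -0.008 to 0.162, and Plk2 and Plk5, called in neither fit, turned from -0.14 to 0.03 and from -0.02 to 0.16. Depth limits Cdk6 most, whose counts ran from 0 to 182.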
